A study of Mus musculus with 18 samples.

Results

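Procollagen leaves the fibroblast only after a series of enzymes and helpers has modified, folded and trimmed it, and other enzymes then crosslink it into fibrils. The 10 genes described here encode such proteins: the lysyl oxidases Lox, Loxl1 and Loxl2, the lysyl hydroxylases Plod1 and Plod2, the prolyl 4-hydroxylase subunits P4ha1 and P4ha2, the collagen chaperone gene Serpinh1, the procollagen C-proteinase enhancer gene Pcolce and the procollagen N-proteinase gene Adamts2. They were taken by symbol from the 32285 genes of the deposited matrices, and all 10 had a row in each of the 10 mRNA matrices. The choice used the symbols and no measured value.

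Hydroxylation of proline in the endoplasmic reticulum lets the collagen triple helix stay folded at body temperature, and hydroxylation of lysine sets which crosslinks can form later. The product of Serpinh1, also called HSP47, binds the folded helix and travels with it towards the Golgi. Outside the cell the propeptides are cut off, lysyl oxidases oxidize lysines, and crosslinks form between neighbouring molecules; in skin, dermal fibroblasts are the main source of this matrix.

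Single cells of mouse skin were profiled by droplet-based 3′ mRNA sequencing in 10 libraries. Every mouse was operated on: the back skin was cut close to the tail and forceps opened a passage under it up to the neck. In the 5 expanded libraries the mice also carried a hydrogel expander, stitched into place near the neck, which stretches the skin above it as it swells, and in the 5 control libraries they carried none. Controls were therefore operated mice, and skin without surgery was not part of these data. Each arm had 2 libraries of day 1 and 2 of day 2, from sequencing rounds 1 and 2, and 1 library of day 4. The mice of an arm and round were pooled in 1 tube before capture, and live cells that excluded DAPI were sorted. Strain, age and sex were not given in the sources used here.

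Filtering left 45488 cells (1853 to 7956 in a library), whose median depth ranged between libraries from 6440.5 to 12847.5 UMIs (unique molecular identifiers, each standing for 1 captured mRNA molecule). Any pair of the 10 libraries shared at most 18 barcodes. Cells fell into 38 clusters, which were grouped into classes by 23 lists of markers, with the 10 genes left out of the clustering. Class names were rebuilt here and carry the ending "-like". Fibroblast-like cells (13015) expressed Pdgfra, Lum, Dcn and other fibroblast markers. A pair of matrix-producing clusters stayed unnamed and is given by number: stromal cluster 3 (3042 cells, led by Coch, Fmod, Cck and Tnmd) and stromal cluster 13 (1210 cells, led by Tnn, Lrrc15 and Hapln1). Fibroblast was the nearest class of both, with 8 of 8 markers met, and the naming rule withheld the name for leading genes of another class. At resolution 2 a cluster led by Tnn and Lrrc15 and one led by Coch and Crabp1 were named fibroblast-like, and one led by Fmod and Coch stayed unnamed. Levels are given as CPM: the UMIs of a gene summed over the cells of a class in a library, divided by all UMIs of that sum and scaled to the usual CPM total. A molecule is counted once at its 3′ end, so CPM compares genes as numbers of molecules, without a correction for length.

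In control skin the 10 genes spanned a wide range in fibroblast-like cells. Serpinh1 stood highest at 1526 ± 295 CPM (SD, n = 5), followed by Adamts2 (867 ± 226), Pcolce (551 ± 141), Lox (326 ± 107) and Loxl2 (293 ± 60.02). P4ha1 (146 ± 24.5), P4ha2 (136 ± 38.6), Loxl1 (119 ± 29.2) and Plod1 (76.9 ± 14) formed a lower group whose ranges overlapped. Plod2 stood at 2.13 ± 0.893 CPM, and fibroblast-like cells were the 11th of the 16 classes ranked for it.

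**Figure D1:**
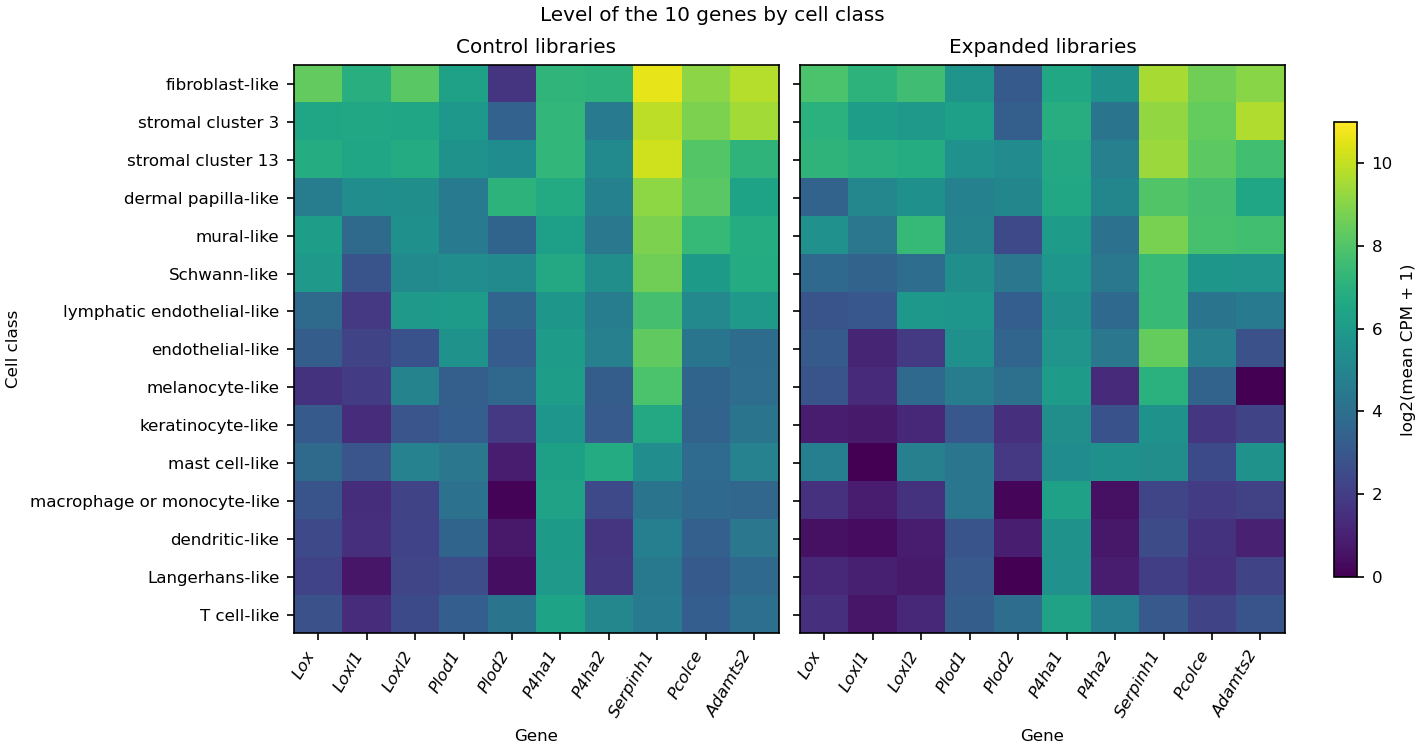
Levels of the 10 genes in 15 cell classes, as log2(mean CPM + 1), with control libraries in the left panel and expanded libraries in the right. Serpinh1, Adamts2, Pcolce, Lox and Loxl2 are high in fibroblast-like cells and the stromal clusters, whereas P4ha1 is spread over nearly every class and Plod2 is highest outside the fibroblast-like cells.

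The class with the highest mean was compared with the next one within each library, over both arms, for classes with at least 20 cells in at least 6 libraries. The pair was picked among 16 classes by the mean of log2(CPM + 1) in these same libraries. Its direction was therefore set by the choice, and the p-values do not account for that choice. Lox averaged 282 ± 96.2 CPM in fibroblast-like cells and 127 ± 77.4 in stromal cluster 13 (n = 10), and was higher in fibroblast-like cells in 9 of 10 libraries (exact two-sided sign-flip permutation test, p = 0.00391, adjusted p over the 10 genes = 0.0195). Loxl2 averaged 246 ± 78.9 against 108 ± 33.9 CPM in the same classes and was higher in 10 of 10 libraries (exact permutation p = 0.00195, the smallest this design can give, adjusted p = 0.0195). Clustering at resolution 2 left no stromal cluster 13 class. There the next class for Loxl2 was mural-like cells (log2 difference 1.38, adjusted exact permutation p = 0.0553). Pcolce led by less, at 471 ± 152 CPM in fibroblast-like cells against 397 ± 118 in stromal cluster 3, and was higher in 9 of 10 libraries (exact permutation p = 0.00586, adjusted p = 0.0195). The order of the first and second class did not pass the test for the other 7 genes. Over both arms together, Adamts2 and Plod1 averaged slightly higher in stromal cluster 3 than in fibroblast-like cells (775 against 696 CPM and 65.0 against 63.8 CPM). Neither pair passed the test (adjusted exact permutation p = 0.382 and 0.732), and the order of the means was opposite in the arms. Adamts2 averaged 718 CPM in stromal cluster 3 and 867 in fibroblast-like cells of control libraries, and 833 and 525 in expanded ones. Plod1 averaged 56.9 and 76.9 CPM in control libraries and 73.0 and 50.7 in expanded ones.

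P4ha1 came from many classes. Over both arms it averaged 133 ± 29.8 CPM in stromal cluster 3 and 128 ± 41.8 in stromal cluster 13. In control skin alone these clusters stood at 153 ± 25.5 and 156 ± 36.3 CPM. There P4ha1 still stood at 83.1 ± 24.6 CPM in T cell-like and 80.3 ± 8.21 in macrophage- or monocyte-like cells. Fibroblast-like cells supplied 60.6% of all P4ha1 UMIs in control libraries and 24.2% in expanded ones, and macrophage- or monocyte-like cells 5.88% and 18.6%. P4ha2, whose product is the other catalytic subunit, was nearly as abundant in mast cell-like cells (108 ± 39.4 CPM, n = 5 control libraries) as in fibroblast-like cells.

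Plod2, whose product hydroxylates the lysines of collagen's telopeptides, had its highest mean in dermal papilla-like cells, the signalling mesenchyme at the hair follicle base. That mean rested on 1 library: the 3 control libraries with enough such cells stood at 300.3 CPM (day 1 round 2), 22.2 (day 2 round 2) and 89.7 (day 4). The 4 expanded libraries stood at 47.5, 30.9, 27.5 and 24.4 CPM. In control skin, stromal cluster 13 (39.8 ± 15.3 CPM) and Schwann-like cells (37.5 ± 14.1) came next, and the test found no order between the leading pair (adjusted exact permutation p = 0.538, n = 7).

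Over the 17 classes of control skin, the genes whose levels ran most like each enzyme were listed among 10388 genes with at least 20 CPM in some class, as a description with no test, since the classes share libraries and depth. Adamts2 ran with Dcn (Pearson r = 0.965), Cpxm1 (0.955) and Col1a2 (0.950), genes of collagen and its associated proteins. Pcolce ran with C1qtnf2 (0.967), Prrx2 (0.967) and Col6a2 (0.965), and Lox with Col5a1 (0.962), Ccdc80 (0.939) and Meg3 (0.938). Serpinh1 ran with Ppic (0.960), Pkd2 (0.959) and Npdc1 (0.949), Loxl1 with Gfpt2 (0.956), Bicc1 (0.953) and Medag (0.951), and Loxl2 with Lhfp (0.940), Ugdh (0.922) and Bmp1 (0.922), the procollagen C-proteinase. Among the hydroxylases, Plod1 ran with Aida (0.963), Crtap (0.934) and Cnpy4 (0.932), P4ha1 with Arcn1 (0.925), Pdgfrl (0.899) and Ssr1 (0.883), and P4ha2 with Ksr1 (0.931), St3gal2 (0.919) and Tbc1d8b (0.917). Plod2 ran with Ergic2 (0.914), Crebzf (0.904) and 4930453N24Rik (0.904). Between the 10 genes themselves, r went from 0.192 (Plod2 and Adamts2) to 0.909 (Pcolce and Adamts2).

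Expansion was then compared within each class, by edgeR on the class sums with day as a covariate. In fibroblast-like cells 8 of the 10 genes fell and none rose, at an adjusted p under 0.05 over all 12334 genes tested. Of all genes tested, 36.2% were called in either direction and 18% were called lower. The median log2 fold change was -0.80 for the 10 genes and 0.01 for all genes. P4ha2 fell most, followed by Serpinh1, Adamts2, Loxl2, Plod1, P4ha1, Pcolce and Lox, while Loxl1 and Plod2 did not pass the test. All 8 were also called with the day-and-round block and with DESeq2. These sums held 203 to 3137 cells and 2289663 to 45792331 UMIs per library.

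**Figure D2:**
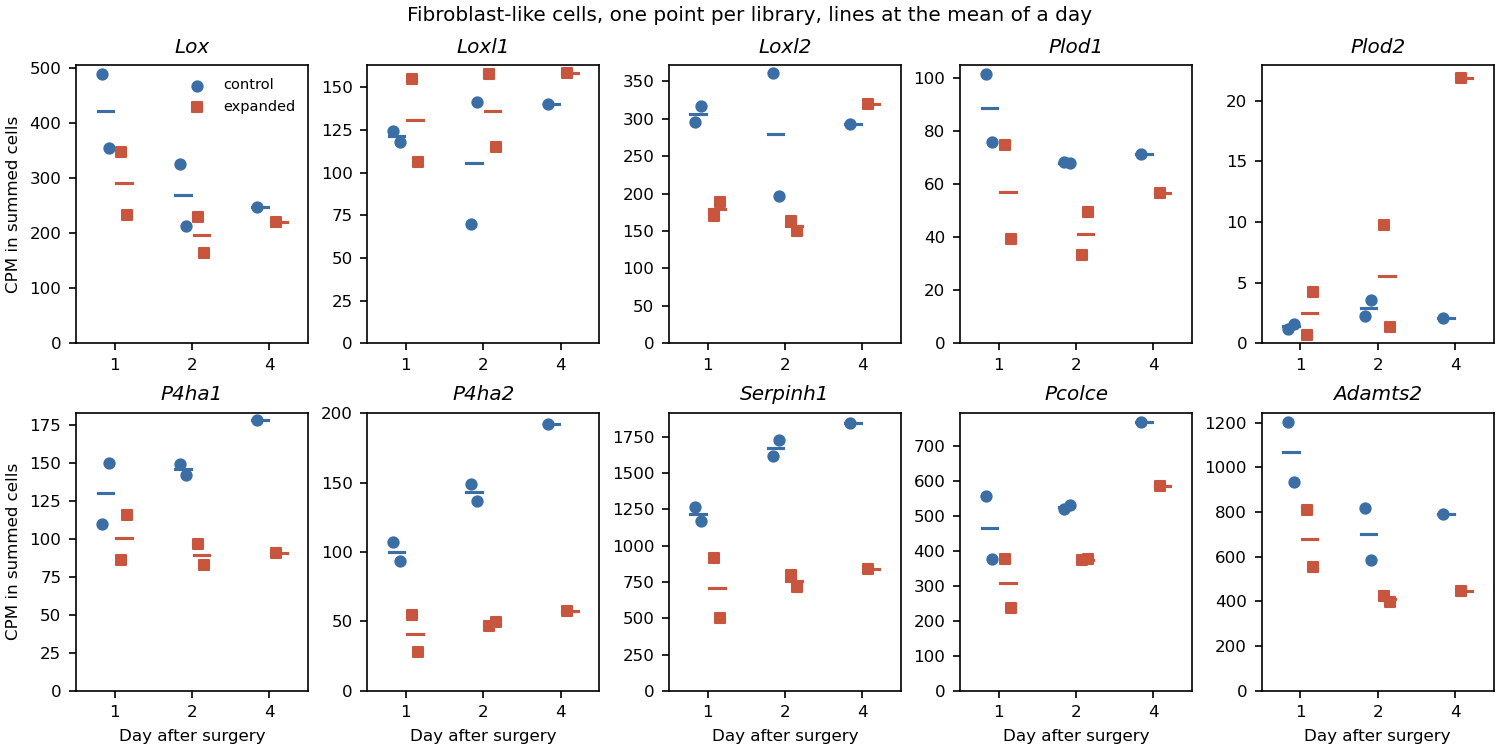
CPM of the 10 genes in the fibroblast-like sum of each library, by day, with control and expanded libraries as points and the mean of a day as a bar. Serpinh1 and P4ha2 have no expanded library within the control range, whereas Loxl1 mixes and Plod2 is high in the expanded libraries of day 2 round 1 and day 4.

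Within the endoplasmic reticulum, both prolyl 4-hydroxylase genes and the chaperone gene fell. Serpinh1 stood at 1269 and 1167 CPM in the control libraries of day 1 (rounds 1 and 2), 1619.6 and 1729 on day 2 and 1847 on day 4, against 912 and 498, 795 and 712, and 842 in the expanded libraries. Every expanded library lay below every control library, and the fall was 2.28-fold (log2 -1.19, SE 0.162, edgeR adjusted p = 0.000483). P4ha2 stood at 107 and 93.4, 149 and 137, and 192 CPM in control libraries and at 54.7 and 27.8, 46.7 and 49.4, and 57.5 in expanded ones. Its groups did not overlap either, and it fell 3.19-fold (log2 -1.67, SE 0.171, adjusted p = 0.000186). P4ha1 stood at 109.6 and 150.2, 149.6 and 142, and 178 CPM against 86.0 and 116, 96.5 and 83.0, and 90.9. It was lower in the expanded library of all 5 day-and-round pairs, although the control library of day 1 round 1 lay within the expanded range (log2 -0.80, SE 0.135, adjusted p = 0.00135).

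The lysyl hydroxylase genes went different ways. Plod1, whose product acts on lysines of the collagen helix, stood at 101 and 75.8, 68.3 and 67.7, and 71.3 CPM in control libraries and at 74.8 and 39.4, 33.2 and 49.4, and 56.6 in expanded ones. It fell in the test and was lower in 5 of 5 pairs, with overlapping ranges (log2 -0.81, SE 0.187, adjusted p = 0.00698). With every cell thinned to 2000 UMIs the call was lost (adjusted p = 0.0776, over all alternatives 2.63e-08 to 0.0776). Plod2 stood at 1.20 and 1.59, 2.21 and 3.56, and 2.09 CPM in control libraries and at 0.720 and 4.23, 9.77 and 1.31, and 21.9 in expanded ones. These levels rested on 3 to 95 UMIs per library, the high expanded libraries were those of day 2 round 1 and day 4, and the groups overlapped. The estimate of +1.29 (SE 0.564) did not pass (adjusted p = 0.0968). Without the expanded library of day 1 round 1 it did, at 1.68 (adjusted p = 0.0169), as it did with no filter on low counts, and the adjusted p ran from 2.55e-05 to 0.355 over the alternatives.

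The promoters of Serpinh1, P4ha1 and P4ha2, the 3 genes of the endoplasmic reticulum group with the smallest adjusted p, share a short motif and are shown for that reason. Of the 10 genes, 6 had an entry in the RefSeq promoter table (assembly GRCm38.p6), from which the 250 bases before the start were taken. Capitals mark ACGTG or its reverse complement CACGT, the core letters that hypoxia-inducible factors are known to bind; the search read both strands.
Serpinh1: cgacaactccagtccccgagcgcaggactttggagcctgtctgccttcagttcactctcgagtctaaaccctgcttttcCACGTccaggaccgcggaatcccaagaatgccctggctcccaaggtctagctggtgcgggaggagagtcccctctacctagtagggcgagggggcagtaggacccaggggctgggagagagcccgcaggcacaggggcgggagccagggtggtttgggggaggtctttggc
P4ha1: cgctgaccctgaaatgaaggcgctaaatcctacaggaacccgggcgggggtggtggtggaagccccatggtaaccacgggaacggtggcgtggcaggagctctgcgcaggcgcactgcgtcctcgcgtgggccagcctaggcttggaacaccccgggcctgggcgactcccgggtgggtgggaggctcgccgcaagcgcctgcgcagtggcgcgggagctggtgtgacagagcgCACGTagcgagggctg
P4ha2: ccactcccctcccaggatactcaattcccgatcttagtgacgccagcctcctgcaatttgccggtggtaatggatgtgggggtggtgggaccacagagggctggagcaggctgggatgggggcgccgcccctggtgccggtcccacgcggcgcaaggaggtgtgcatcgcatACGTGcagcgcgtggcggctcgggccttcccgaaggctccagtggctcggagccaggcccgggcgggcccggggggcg

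Each sequence runs 5′ to 3′ on the strand of its gene. The Serpinh1 window lies at chr7:99353240-99353489 on the minus strand and the P4ha1 window at chr10:59323046-59323295 on the plus strand, both upstream of the gene and in no exon or intron of the GENCODE vM21 annotation. The P4ha2 window lies at chr11:54100674-54100923 on the plus strand, inside an intron of a longer P4ha2 transcript whose gene model spans chr11:54100095-54131665. The ACGTG core stood 171, 16 and 78 bases before the start in Serpinh1, P4ha1 and P4ha2. It was in 3 of the 6 windows with an entry and in 16.6% of 32851 windows of the same length. The GC box GGGCGG was in 6 of 6 (32.7% of all windows), TATAAA in 1, that of Plod1 (12.4%), and neither CCAAT (33.8%) nor the heat shock element GAANNTTC (6.69%) was in any. A match says only that the letters are there.

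The extracellular processing genes both fell. Pcolce, whose product enhances cleavage of the carboxy-terminal propeptide, stood at 558 and 377, 519.7 and 532, and 769 CPM in control libraries and at 379 and 236, 374 and 376, and 587 in expanded ones. It was lower in 5 of 5 pairs, and the expanded library of day 4 lay within the control range (log2 -0.70, SE 0.165, adjusted p = 0.00742). Adamts2, whose product removes the amino-terminal propeptide, stood at 1203 and 933, 819 and 586, and 791 CPM against 809 and 552, 425 and 396, and 446. It was lower in 5 of 5 pairs, with the expanded library of day 1 round 1 within the control range (log2 -0.93, SE 0.163, adjusted p = 0.00157). In each arm Pcolce was highest on day 4 and Adamts2 on day 1 round 1.

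Among the lysyl oxidases the 3 genes differed. Loxl2, whose product also crosslinks the type IV collagen of basement membranes, stood at 296 and 317, 361 and 197, and 293 CPM in control libraries and at 170.2 and 189, 163 and 149.8, and 319.9 in expanded ones. It was lower in the pairs of days 1 and 2 and higher in that of day 4 (log2 -0.81, SE 0.196, adjusted p = 0.00856). Lox stood at 489 and 354, 326 and 213, and 248 CPM against 348 and 232, 229 and 163, and 221. It was lower in 5 of 5 pairs but the ranges overlapped broadly, and the fall was the smallest of the 8 (log2 -0.63, SE 0.190, adjusted p = 0.0244). The Lox call was lost without the control library of day 1 round 1 (adjusted p = 0.0640) or day 2 round 1 (0.0700), without the expanded library of day 1 round 2 (0.0564) or day 2 round 2 (0.0631), and when cells were summed per mouse by their hashing antibody (log2 -0.24, adjusted p = 0.282), within a range of 3.99e-05 to 0.282. Loxl1, whose product is known from elastic fibres, stood at 125 and 118, 69.8 and 142, and 140.2 CPM against 155 and 106, 158 and 115, and 158. It was higher in 3 pairs and lower in 2, and the estimate of 0.05 (SE 0.185, adjusted p = 0.876) changed sign under 8 alternatives. Summed per mouse, Loxl1 was called higher (log2 0.53, adjusted p = 0.0469). The sums per mouse lack day 1 round 1, where no cell was assigned to a mouse, and take the mice of a pooled library as replicates.

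The fibroblast-like class itself was made up differently in the arms. It held 38.3 ± 10.7% of the cells of control libraries and 13.04 ± 6.34% of those of expanded libraries, lower in 5 of 5 pairs. Cluster 18, led by Cxcl5, Mmp3, Tnc and Saa3, made up 2.03 ± 2.94% of fibroblast-like cells in controls and 29.4 ± 4.81% in expanded skin, and cluster 8 (Igfbp2, F13a1, Mme) 12.0 ± 2.83% and 24.3 ± 4.49%. Clusters 0 and 1, led by Col1a1, Col1a2 and Meg3, went from 31.7 ± 7.70% to 5.07 ± 2.71% and from 24.6 ± 7.54% to 7.92 ± 8.01%, and cluster 10 (Cilp, Ogn, Mfap4, and Lox itself) from 13.1 ± 1.62% to 4.58 ± 3.47%. Clusters were defined on these cells, so their sizes are given without a test. Leaving out cluster 18, or the shallow cluster 20, or adding stromal clusters 3 and 13, left 8 genes called each time, with Serpinh1 at -1.05, -1.18 and -1.24. Neutrophil markers summed to 4.28 to 15.03 CPM in control fibroblast-like sums and 21.0 to 183 in expanded ones, higher for 6 of 6 genes. NK or innate lymphoid markers summed to 5.12 to 12.95 and 47.4 to 147 CPM, higher for 3 of 6 genes. Erythroid markers ran from 0.465 to 4781 CPM in control and from 0.144 to 66495 in expanded sums, higher for 4 of 4 genes. The part of these markers in the result was not tested.

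Levels within single clusters separated the genes into groups. Over 22 comparisons of 1 cluster in 1 day-and-round pair, Serpinh1 and P4ha1 were lower in the expanded library in 22 and P4ha2 in 21, as were Col1a1 and Col1a2 in 22. Pcolce was lower in 18, Plod1 and Adamts2 in 16 and Loxl2 in 14. Cluster 28 (Apod, Ccl11) differed: Loxl1, Loxl2, Plod1 and Adamts2 were higher in 4 of its 4 comparisons. For Plod1 the fit of that cluster over all its libraries gave log2 -0.02 (edgeR adjusted p = 0.984). Its highest control library there, day 2 round 2 (58.9 CPM), had no expanded partner. All 22 comparisons come from the same 5 pairs of libraries, so they are not independent and are given without a test. Lox was higher in 16 of the 22 and lower in 6, opposite to its fall in the class as a whole. In control skin Lox was highest in cluster 10 (681 ± 220 CPM), whose share was smaller in expanded skin, and lower in cluster 18 (111 ± 34.4, n = 2) and cluster 8 (117 ± 38.6). In expanded skin these clusters stood at 921 ± 97.4 (n = 2), 247 ± 98.4 and 208 ± 34.6 CPM. Days differ between these means. Both expanded libraries of cluster 10 were of day 1 (853 and 990 CPM), where the controls stood at 980 and 816. Both control libraries of cluster 18 were of day 2 round 2 (86.5 CPM) and day 4 (135), where the expanded ones stood at 150 and 213.

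**Figure D3:**
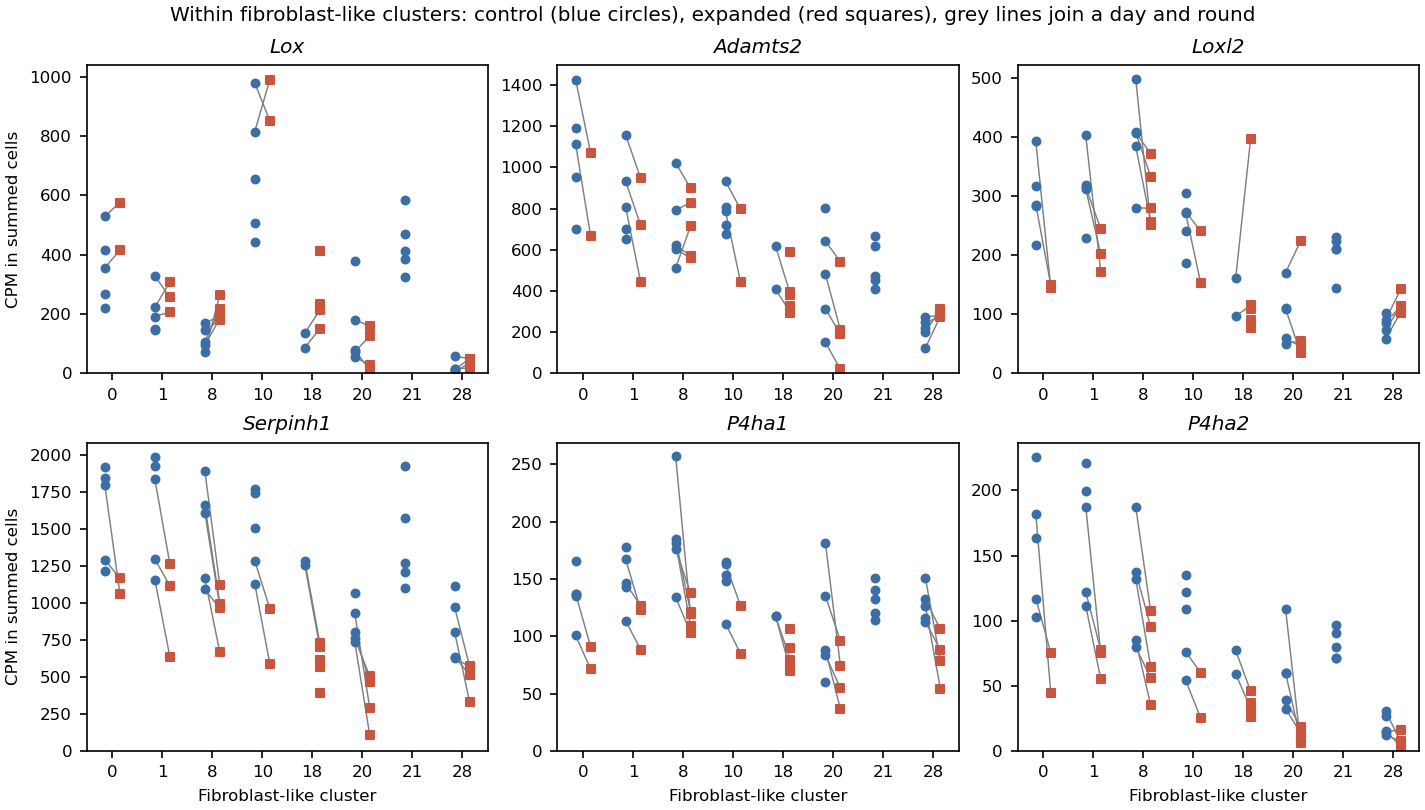
CPM of 6 genes in each fibroblast-like cluster, with control libraries as circles, expanded libraries as squares and grey lines joining the libraries of 1 day and round. Serpinh1 lines slope down in 22 of 22 comparisons, whereas Lox lines slope up in 16 of 22.

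Cluster 8 had enough cells in all 10 libraries for its own fit, chosen after the data were seen, in which 17.3% of 9505 genes were called. Lox stood there at 145 and 168, 94.6 and 72.8, and 106 CPM in control libraries and at 179 and 194, 185 and 264, and 217 in expanded ones. No expanded library overlapped the controls, and Lox rose (log2 0.73, SE 0.206, edgeR adjusted p = 0.0248). P4ha2 (log2 -0.93, adjusted p = 0.000749), Serpinh1 (-0.74, 0.00191), P4ha1 (-0.75, 0.00347) and Loxl2 (-0.53, 0.0439) fell, and 8.77% of genes were called lower. Adamts2 (-0.10, adjusted p = 0.690) and Pcolce (-0.20, 0.365), which fell in the whole class, did not pass in cluster 8. In cluster 28 (Apod, Ccl11; 5 control and 4 expanded libraries) edgeR called 0 of 8 genes, with 3 at an unadjusted p under 0.05, where 6.72% of all genes were called; DESeq2 was not run there. In the shallow cluster 20 it called 0 of 6, with 2 at an unadjusted p under 0.05, where 0.267% of all genes were called.

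As a description, the control levels of each cluster were averaged in the cluster proportions of each expanded library. For Lox this mixed level was 170.0 ± 33.9 CPM, below both the control mean of 326 and the expanded mean of 239, and none of the 5 expanded libraries lay below its own mixed level. For Serpinh1 it was 1289 ± 60.1 CPM, between the control mean of 1526 and the expanded mean of 752, with 5 of 5 expanded libraries below it. P4ha2 mixed to 90.2 ± 11.5 CPM against 136 in control and 47.2 in expanded skin, and P4ha1 to 141 ± 3.87 against 146 and 94.4, again with 5 of 5 expanded libraries below. Adamts2 mixed to 633 ± 76.5 CPM against 867 and 525, with 4 of 5 below. The control level of cluster 18 came from 2 libraries, and what part the change of clusters had in each gene's difference was not tested.

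Taken as sums, the messages of 3 collagen genes fell further than those of the 10 genes. Col1a1, Col1a2 and Col3a1 together took 103347 ± 39523 CPM of control and 34748 ± 20646 of expanded fibroblast-like sums, and the 10 genes together 4042 ± 381 and 2443 ± 435. Per 1000 UMIs of these 3 collagen genes, the 10 genes had 44.0 ± 17.6 UMIs in control libraries and 84.6 ± 34.3 in expanded ones, higher in 5 of 5 pairs. Lox went from 3.26 ± 0.575 to 7.75 ± 1.99 per 1000 collagen UMIs and Serpinh1 from 17.5 ± 9.89 to 26.6 ± 12.6, each higher in 5 of 5 pairs, and P4ha2 was the exception, at 1.53 ± 0.811 and 1.71 ± 0.919 with 4 of 5. A ratio of this kind shows unequal change and not which side moved.

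Serpinh1 also fell in the other collagen-making clusters. In stromal cluster 3, 3 of the 10 genes fell and none rose, where 10.1% of genes were called and 5.04% were called lower. Serpinh1 stood at 879 and 984, 734 and 1121, and 1062 CPM in control libraries and at 672 and 479, 536 and 697, and 580.4 in expanded ones, without overlap (log2 -0.72, SE 0.136, adjusted p = 0.00717). Pcolce fell from 458 ± 101 to 336 ± 108 CPM (log2 -0.51, adjusted p = 0.0269) and Loxl2 from 86.4 ± 17.0 to 59.8 ± 17.6 (-0.56, 0.0362). The Pcolce call was lost without the control library of day 1 round 1, day 1 round 2 or day 2 round 1, or the expanded library of day 1 round 1, day 1 round 2 or day 2 round 2 (adjusted p = 0.0504 to 0.0822). That of Loxl2 was lost without the same libraries apart from the expanded library of day 1 round 2 (0.0695 to 0.105), and when summed per mouse (0.383). Adamts2, which fell in fibroblast-like cells, stood at 718 ± 207 and 833 ± 188 CPM (log2 0.20, adjusted p = 0.309), and Lox at 88.9 ± 43.3 and 127 ± 90.6 (0.38, 0.172). With the day-and-round block 6 genes were called in stromal cluster 3: P4ha1 (log2 -0.46, adjusted p = 0.00695) and Loxl1 (-0.48, 0.0259) fell as well, and Plod1 rose (0.34, 0.0433).

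In stromal cluster 13, Serpinh1 was the 1 gene of 10 called, where 1.83% of genes were called and 0.548% were called lower. It stood at 1134 and 1456, 676 and 1277, and 1407 CPM in control libraries and at 824 and 523, 658 and 566, and 635 in expanded ones (log2 -0.90, SE 0.175, adjusted p = 0.0189). The control library of day 2 round 1 was the low one and lay within the expanded range. The call was lost without the control library of day 1 round 2, day 2 round 2 or day 4, or the expanded library of day 1 round 2 or day 4 (adjusted p = 0.0504 to 0.0999). The other 9 genes lay between log2 -0.64 (P4ha1, adjusted p = 0.137) and 0.56 (Adamts2, 0.280). With the block P4ha1 was called too (log2 -0.67, adjusted p = 0.0279).

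Mural-like cells, the pericytes and smooth muscle cells around vessels, showed another pattern: Loxl2 rose, Lox fell, and Serpinh1 did not pass the test. Of 9 genes tested 2 were called, 1 in each direction, where 19.4% of genes were called, 8.01% higher and 11.3% lower. Loxl2 stood at 90.7 and 49.8, 43.2 and 15.2, and 28.8 CPM in control libraries and at 156 and 103, 181 and 170.3, and 201 in expanded ones. Every expanded library lay above every control library, and the rise was 3.62-fold (log2 1.86, SE 0.366, edgeR adjusted p = 0.00489). It was called under all 18 alternatives run for it, with adjusted p from 8.32e-18 to 0.0337. The sums behind it held 50 to 251 cells, and 15 to 59 Loxl2 UMIs in control libraries against 59 to 198 in expanded ones.

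Lox stood at 83.0 and 82.7, 62.1 and 49.5, and 67.5 CPM in control mural-like sums and at 64.5 and 68.2, 39.2 and 39.1, and 23.3 in expanded ones. It was lower in 5 of 5 pairs with overlapping ranges (log2 -0.73, SE 0.196, adjusted p = 0.0217). The call was lost without the day 4 library of either arm (adjusted p = 0.0995 without the control, 0.0916 without the expanded one) and at a mitochondrial limit of 5% (0.260). Adamts2 stood at 249 and 90.7, 78.4 and 89.9, and 45.2 CPM against 238 and 138, 188 and 198, and 237, where the control library of day 1 round 1 lay apart from the other controls (log2 0.89, SE 0.346, adjusted p = 0.0857). With the block it was called (log2 0.93, adjusted p = 0.04005), and by DESeq2 as well (0.91, adjusted p = 0.0449). Serpinh1 stood at 452 ± 117 and 445 ± 82.8 CPM (log2 -0.12, adjusted p = 0.591).

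The rise of mural Loxl2 was set beside other measures. Fibroblast markers in the mural-like sums ran from 187 to 2837 CPM in control libraries and from 343 to 2651 in expanded ones, and pericyte markers from 2564 to 5712 and from 3188 to 6072. Macrophage or monocyte markers reached 138 CPM in controls and 580 in expanded libraries, and neutrophil markers 12.0 and 934. Basal keratinocyte markers, higher for 6 of 6 genes, reached 382 and 1095 CPM, and smooth muscle markers ran from 12975 to 18453 CPM and from 9184 to 17535; the part of these cells in the rise was not tested. Fibroblast RNA in proportion to the collagen messages of the mural-like sums would amount to 17.8 CPM of Loxl2 in control and 12.7 in expanded libraries, beside 45.5 and 162 measured. After thinning to 2000 UMIs per cell, 6.85 ± 3.83% of control and 21.7 ± 10.7% of expanded mural-like cells held a Loxl2 UMI, and 14.1% and 45% before thinning, at median depths of 5380.5 and 10052 UMIs. Among T cell-like cells, which should lack the gene, the thinned shares were 1.32% and 0.122%, at median depths of 3443.5 and 4604 UMIs. Fibroblast-like cells still supplied most Loxl2 UMIs, 90.6% in control and 68.0% in expanded libraries, and the mural-like share was 0.482% and 9.17%.

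**Figure D4:**
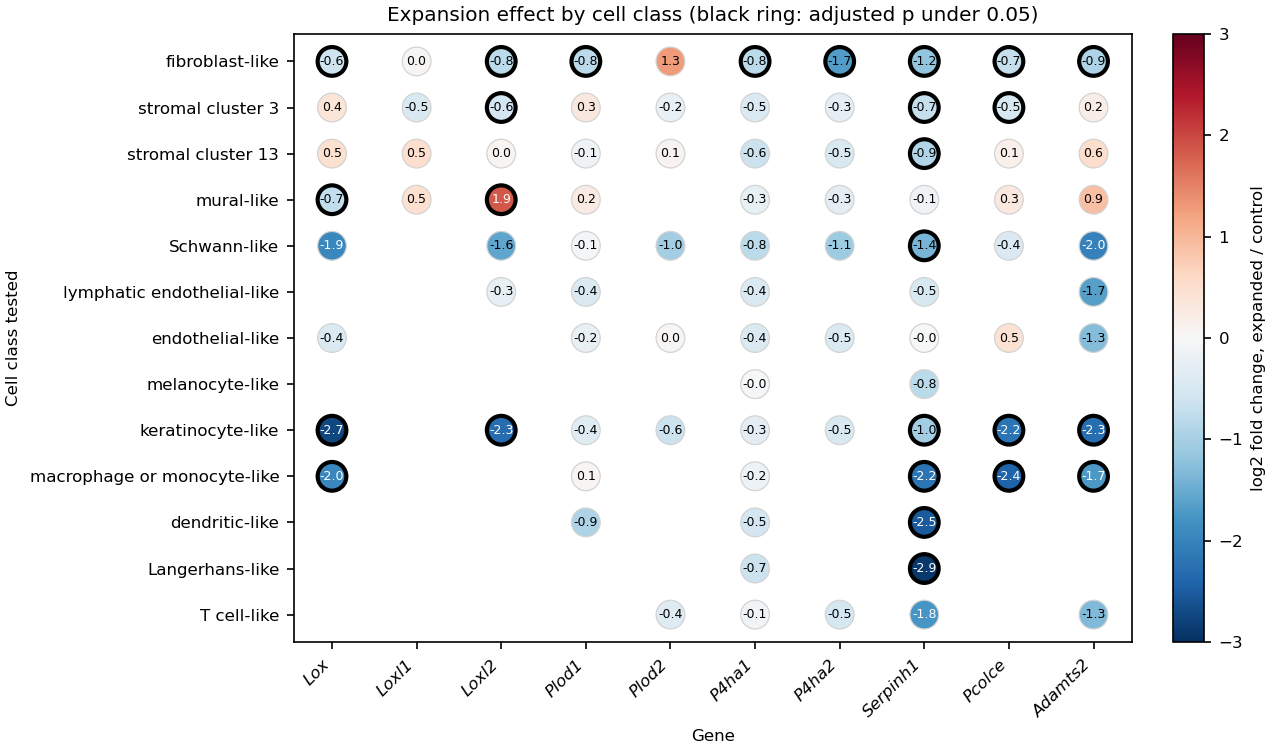
Log2 fold change of each gene between expanded and control libraries in the 13 classes tested, as the colour of a bubble, with a black ring where the adjusted p is under 0.05. Serpinh1 is ringed as lower in 8 of the 13 classes, and the 1 ringed rise is Loxl2 in mural-like cells.

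In keratinocyte-like cells 5 of 9 genes were lower, where 8.9% of genes were called and 4.24% were called lower. Serpinh1 stood at 92.6 and 86.9, 92.1 and 104, and 119 CPM in control libraries and at 64.2 and 52.9, 46.5 and 34.1, and 47.4 in expanded ones, without overlap (log2 -1.04, SE 0.142, adjusted p = 0.00485), and stayed called under all 19 alternatives. Scaled as above from the collagen messages of the class, fibroblast RNA would amount to 20.5 CPM of Serpinh1 in control and 2.56 in expanded keratinocyte-like sums, beside the 98.9 and 49.0 measured; its part in the fall was not tested. For the other 4 genes called both levels were low: Lox was measured at 7.57 against a scaled 5.70 CPM in control and 0.855 against 0.865 in expanded libraries, Pcolce at 10.4 against 7.93 and 2.39 against 1.24, Adamts2 at 17.8 against 14.8 and 3.74 against 1.87, and Loxl2 at 6.50 against 4.45 and 1.41 against 0.635. Each of these 4 calls was lost without the control library of day 1 round 1 or day 4, or the expanded library of day 1 round 1, day 1 round 2 or day 4 (adjusted p = 0.0537 to 0.136), and 1 to 5 genes were called over the fits that left out 1 library. Lox and Loxl2 were lost as well without the control library of day 1 round 2 (0.0555 and 0.0615) or the expanded library of day 2 round 2 (0.0691 and 0.0558), and Pcolce without the former (0.0508). Adamts2 was not called by DESeq2 (adjusted p = 0.0672) or at clustering resolution 2 (log2 -1.61, 0.0849) either.

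Immune classes showed lower values of genes that they barely held. In macrophage- or monocyte-like cells 4 of 6 genes were lower (22.5% of genes called, 12.5% lower): Pcolce (log2 -2.42, adjusted p = 0.00632), Serpinh1 (-2.19, 0.00333), Lox (-1.95, 0.0445) and Adamts2 (-1.73, 0.0271). The calls of Lox and Adamts2 were lost without the control library of day 1 round 1, day 2 round 1 or day 4, or the expanded library of day 1 round 2, day 2 round 2 or day 4 (adjusted p = 0.0523 to 0.158). Serpinh1 was measured there at 17.7 CPM in control and 3.99 in expanded libraries, beside scaled levels of 16.7 and 2.57; the part of fibroblast RNA in this fall was not tested. P4ha1 stood at 80.3 measured against 1.60 scaled CPM in control and 77.6 against 0.316 in expanded libraries, and did not fall in the test. Serpinh1 was also the 1 gene called lower among 3 tested in dendritic-like cells (log2 -2.51, adjusted p = 0.00905; 15.8% of genes called, 8.45% lower) and among 2 in Langerhans-like cells (-2.88, 0.00631; 4.2% and 2.75%). For T cell-like sums edgeR called 0 of 5 genes, with 2 at an unadjusted p under 0.05, where 0.178% of genes were called; DESeq2 called 1, Serpinh1 (log2 -1.78, adjusted p = 0.00656).

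Schwann-like cells, the glia of skin nerves, carried Serpinh1 at 392 ± 94.4 CPM in 4 control libraries and 168 ± 47.8 in 5 expanded ones, without overlap. It was the 1 gene called of 9 (log2 -1.39, adjusted p = 0.0259), where 0.227% of genes were called, 0.166% lower. Of the 9 genes, 7 had an unadjusted p under 0.05, and the median log2 fold change of the 9 was -1.08. Adamts2 was called too with the day-and-round block (log2 -2.12, adjusted p = 0.00635) and by DESeq2 (-2.03, 0.0373). The Serpinh1 call was lost without the control library of day 1 round 2, day 2 round 2 or day 4 or the expanded library of day 1 round 2 or day 4 (adjusted p = 0.0857 to 0.194), and at a mitochondrial limit of 5% (0.0652). In endothelial-like cells edgeR called 0 of 8 genes, with 3 at an unadjusted p under 0.05 and none by DESeq2, where 12% of genes were called, and Serpinh1 stood at 316 ± 74.4 and 336 ± 22.3 CPM (log2 -0.02, adjusted p = 0.968). Lymphatic endothelial-like cells had 0 of 5 called, with 2 at an unadjusted p under 0.05 and none by DESeq2, where also 12% of genes were called: Adamts2 was at log2 -1.66 (adjusted p = 0.0655), Serpinh1 at -0.49 (0.0960), P4ha1 at -0.44 (0.222), Plod1 at -0.44 (0.218) and Loxl2 at -0.26 (0.469). Melanocyte-like cells had 0 of 2, with 1 at an unadjusted p under 0.05 and none by DESeq2, where 1.33% were called: Serpinh1 was at log2 -0.82 (adjusted p = 0.0542) and P4ha1 at -0.03 (0.980). No difference between classes in these effects was tested.

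Over all cells of a library 9 of the 10 genes were lower, where 26.3% of 16510 genes were called and 13.8% were called lower, with a median log2 fold change of -1.65 for the 10 genes and 0.05 for all. P4ha2 went from 71.1 ± 17.8 to 16.3 ± 5.45 CPM (log2 -2.33, adjusted p = 0.00182), Serpinh1 from 863 ± 125 to 256 ± 102 (-1.97, 0.00207), Loxl2 from 155 ± 50.3 to 47.6 ± 13.97 (-1.92, 0.00292) and Lox fell by 1.79 on the log2 scale (adjusted p = 0.00720). Even Loxl1 was lower (log2 -1.11, adjusted p = 0.0171), although it did not pass in fibroblast-like cells. In such sums fewer cells of a type and less RNA per cell cannot be told apart. The fibroblast-like share of UMIs went from 91.5% to 72.1% for Lox, from 88.0% to 49.0% for P4ha2, from 81.7% to 50.5% for Serpinh1 and from 87.2% to 50.4% for Adamts2, of which stromal cluster 3 then supplied 40.2%, up from 9.07%.

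By day, the falls of P4ha2 and Serpinh1 in fibroblast-like cells were present from the first time point. P4ha2 differed by log2 -1.56 on day 1, -1.64 on day 2 and -1.98 on day 4 (adjusted p = 0.0219, 0.0189 and 0.0736), and Serpinh1 by -1.07, -1.21 and -1.37 (0.0480, 0.0398 and 0.126). They were the 2 genes called on day 1, where 8.44% of genes were called, and on day 2, where 7.06% were. Day 4 had 1 library per arm, its spread taken from the other days, and edgeR called 0 of 10 genes there with 5 at an unadjusted p under 0.05, where 0.341% of genes were called. Plod2 differed by log2 0.42, 1.06 and 3.14 and Loxl2 by -1.05, -0.91 and -0.11 on days 1, 2 and 4. In mural-like cells Loxl2 differed by log2 0.75 on day 1 (adjusted p = 0.358), 2.79 on day 2 (0.0130) and 2.65 on day 4 (0.0383), where 0.873%, 3.24% and 2.36% of genes were called. The test of whether the effect depended on the day called 0 of 88 combinations of gene and class (0.00733% over all genes), with 10 at an unadjusted p under 0.05, among them mural Loxl2 (unadjusted p = 0.00993, adjusted p = 0.719).

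The rest of the collagen pathway was read from lists of related genes. Of 22 other collagen processing genes 19 were tested in fibroblast-like cells, 11 fell and 1 rose, with a median log2 fold change of -0.47, where 36.2% of all genes were called and 18% were called lower. Pcolce2, the relative of Pcolce, fell from 774 ± 130 to 250.2 ± 139 CPM (log2 -1.93, adjusted p = 0.000232), Fkbp14, a prolyl isomerase of the endoplasmic reticulum, from 55.9 ± 11.5 to 31.4 ± 6.18 (-1.02, 0.000171), and Mia3, which loads procollagen into transport carriers, from 213 ± 14.3 to 141 ± 27.6 (-0.80, 0.000732). Tmem38b, an ion channel of the endoplasmic reticulum, rose from 9.25 ± 1.31 to 21.0 ± 6.08 CPM (log2 0.98, adjusted p = 0.00102). These 4 genes were picked for the smallest adjusted p of their list. The arms did not overlap for any of them, which a pick of this kind favours. Of 9 fibrillar collagen genes 7 were tested and 5 fell, against the same share of all genes, led by Col1a2 (log2 -2.07, adjusted p = 0.000913), Col1a1 (-2.02, 0.000989), Col3a1 (-1.46, 0.000549) and Col5a2 (-1.08, 0.000449).

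Hypoxia-inducible genes and chaperones were read in the same way, since P4ha1, P4ha2, Plod2 and Lox are themselves known targets of hypoxia-inducible factors. Of 12 hypoxia-inducible genes 10 were tested, 3 rose and 1 fell, with a median log2 fold change of 0.17; these 4 of 10 lie near the 36.2% called over all genes. Pgk1, a glycolytic enzyme gene, went from 68.7 ± 14.5 to 152 ± 19.8 CPM (log2 0.97, adjusted p = 0.000483), Ldha from 187 ± 41.2 to 377 ± 57.2 (0.84, 0.000593), the glucose transporter gene Slc2a1 rose by log2 1.01 (0.0185), and Bnip3 fell by 0.40 on the log2 scale (0.0208). Of 12 endoplasmic reticulum chaperone genes edgeR called 0, with 0 at an unadjusted p under 0.05 and 0 by DESeq2. Their median log2 fold change was -0.13, with Hspa5 at -0.34 (adjusted p = 0.167) and Hsp90b1 at -0.33 (0.201). In mural-like cells 3 of 14 other collagen processing genes were higher and none lower, where 19.4% of all genes were called and 8.01% were called higher. Of 6 fibrillar collagen genes there edgeR called 0, with 1 at an unadjusted p under 0.05 and 0 by DESeq2.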

How the data were processed

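For each mRNA library the authors deposited a matrix of UMI counts, which Cell Ranger 6.1.2 had produced against mm10, per the file headers and the submitters' processing notes, with no normalization. The 8 hashing samples held lists of antibodies, whose counts were rows of the mRNA matrices. For day 1 round 2 control, the mRNA and hashing titles seemed exchanged, and the library descriptions were followed. Of 55174 barcodes, 45488 cells were kept: at least 200 genes and 500 UMIs, at most 10% mitochondrial UMIs (8.60 to 24.4% of barcodes were over), and no doublet by Seurat 5.3.0 hashing calls or scanpy 1.11.5 Scrublet. Libraries held 17726739 to 75470722 gene UMIs. Cells were clustered on 2000 variable genes (30 components, 15 neighbours, Leiden with leidenalg 0.10.2 at resolution 1), and named by markers.

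Counts were added up by class and library (at least 20 cells, at least 4 libraries per arm). edgeR 4.0.16 in R 4.3.3 tested expanded against control (quasi-likelihood, TMM scaling, day as covariate, filterByExpr), with Benjamini-Hochberg adjustment over all genes of the class. Leading classes, picked in the same libraries, were compared by an exact sign-flip test of log2(CPM + 1). The tests were checked on simulated data. Alternatives were the day-and-round block, RLE scaling, no filter on low counts, DESeq2 1.42.0, 5% mitochondrial UMIs, thinning to 2000 UMIs, resolution 2, sums per mouse, and leaving out each library. Day and round pair the libraries by their labels: of 63 correlations of paired deviations in 13 classes 57 were positive (median 0.248, range -0.13 to 0.514). Mice were pooled within libraries, and p-values measure the spread between libraries, except for the sums per mouse. Those take the mice of a pooled library as replicates and lack day 1 round 1, where no cell was assigned to a mouse.

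The rule for named genes took the 10 genes wherever a class was tested, of which 2 to 10 passed the filter on low counts and the rest of a class are given as counts or ranges, from the other lists at most 4 genes with the smallest adjusted p in fibroblast-like cells, and the 3 genes most like each. The genes and lists were chosen with earlier results of these data known. Positions come from GENCODE vM21 on GRCm38.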

Additional observations from a re-analysis of the deposited data

Results flagged for a closer look

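In groups of 4 or 5 libraries, a library was singled out where its gap to the nearest other one was large against the whole range of its group. This held for 13 of 176 groups of gene, class and arm (7.39%). Chance alone singles out about 1 in 20 groups drawn from 1 normal distribution, whereas the groups here mix days 1, 2 and 4. In fibroblast-like cells Loxl2 stood at 320 CPM in the expanded library of day 4, where the other expanded libraries lay between 150 and 189, and control day 1 round 1 had 101 CPM of Plod1, where the others lay between 67.7 and 75.8. In mural-like cells the control library of day 1 round 1 stood at 249 CPM of Adamts2 (the others at 45.2 to 90.7) and that of day 2 round 1 at 32.4 CPM of P4ha2 (15.2 to 18.3).

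Macrophage- or monocyte-like cells of day 1 round 1 were high for several genes. The control library had 17.4 CPM of Lox (the others at most 4.63) and 30.7 CPM of Adamts2 (2.26 to 9.44), and the expanded library 7.14 CPM of Lox (the others at most 1), 7.69 CPM of Pcolce (0.860 to 2.81) and 35.2 CPM of Plod1 (13.8 to 17.2). In keratinocyte-like cells the expanded library of the same day and round had 2.44 CPM of Lox (the others at most 0.702). Control day 1 round 2 had Serpinh1 at 43.1 CPM in Langerhans-like cells (13.2 to 18.4) and P4ha1 at 86.1 CPM in lymphatic endothelial-like cells (43.3 to 52.9), where Plod1 stood low at 38.2 CPM in control day 2 round 1 (66.3 to 73.5).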

How the results depend on the processing

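In fibroblast-like cells 7 to 9 of the 10 genes were called under all 22 alternatives, and over all cells 8 or 9. Of 532 values of single genes under alternatives, 450 kept their direction and side of the threshold, 71 lost the call, 3 gained it and 8 changed sign. The 8 values that changed sign were Loxl1 in fibroblast-like cells: -0.0043 with no filter on low counts, -0.0101 thinned to 2000 UMIs, -0.0912 at resolution 2, -0.12 without cluster 18, -0.17 with stromal clusters 3 and 13, and, leaving out 1 library, from -0.12 to 0.14; summed per mouse it was 0.53 and called. The difference of Plod1 between its leading classes ranged from -0.0363 (without expanded day 1 round 2) to 0.15 on leaving out 1 library. The alternatives that leave out a fibroblast-like cluster or add stromal clusters, and the fits of single clusters, were chosen after seeing the data.

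With the day-and-round block, 8 genes were called in fibroblast-like cells, 9 over all cells, 6 in stromal cluster 3, 2 each in stromal cluster 13, Schwann-like and dendritic-like cells and 1 in lymphatic endothelial-like cells; the mural count went from 2 to 3. With no filter the counts were 4 in dendritic-like and Schwann-like cells, 5 in stromal cluster 3, 3 each in Langerhans-like, T cell-like and lymphatic endothelial-like cells, 2 in melanocyte-like cells and stromal cluster 13, 1 in endothelial-like cells, and 8 for the dependence on day. DESeq2 gave 2 in dendritic-like and Schwann-like and 1 in T cell-like cells, and RLE scaling 2 in dendritic-like cells. Thinning gave 1 in keratinocyte-like and macrophage- or monocyte-like cells and 0 in dendritic-like and Langerhans-like cells. Sums per mouse gave 2 in keratinocyte-like, macrophage- or monocyte-like and dendritic-like cells. At a mitochondrial limit of 5% the count was 2 in dendritic-like and 0 in Langerhans-like and Schwann-like cells. At resolution 2 leading classes were called for 5 genes, with other pairs compared. Fibroblast-like cells were set there against dermal papilla-like cells for Loxl1 and against mural-like cells for Loxl2, Serpinh1 and Adamts2. Leaving out 1 library gave 1 to 4 in dendritic-like and stromal cluster 3 cells, 1 to 5 in keratinocyte-like, 2 to 5 in macrophage- or monocyte-like, 1 to 3 in mural-like, 0 to 2 in Schwann-like and lymphatic endothelial-like, 0 to 1 in endothelial-like and stromal cluster 13 cells, and 3 to 5 leading classes. The share of all genes called moved with the setting as well. In Langerhans-like cells it was 4.2% in the reported fit, 6.58% with no filter and 3.35% after thinning. The cause of the changed counts was not tested.

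The number of all genes called ranged over the alternatives from 2175 to 4987 in fibroblast-like cells (4468 in the reported fit), 2140 to 5434 over all cells (4336), 1209 to 3490 in macrophage- or monocyte-like (2287), 506 to 1681 in mural-like (1396), 357 to 2208 in dendritic-like (1257), 334 to 1791 in endothelial-like (1134), 204 to 2171 in keratinocyte-like (1045), 464 to 1685 in stromal cluster 3 (1013), 220 to 973 in lymphatic endothelial-like (775), 21 to 1103 in Langerhans-like (284), 15 to 443 in stromal cluster 13 (140), 28 to 183 in melanocyte-like (64), 3 to 258 in Schwann-like (15) and 0 to 275 in T cell-like cells (14). Depth limits Plod2 in fibroblast-like cells, with as few as 3 UMIs in a library, and the collagen enzyme genes of immune classes.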
